A study of Drosophila melanogaster with 150 samples.

Results

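The heat shock genes described here come from a set of 8 named genes: the small heat shock protein genes Hsp22, Hsp23, Hsp26, Hsp27, Hsp67Bc and l(2)efl, the Hsp70-family gene Hsp68, and the Hsp90 gene Hsp83. Members were the array probe sets for which the platform annotation gives a single one of these symbols. This rule found 6 probe sets of 4 genes among 18769 tested probe sets. Hsp26, Hsp27 and Hsp68 had 1 probe set each, and l(2)efl had 3, called A, B and C here in order of their mean value. Hsp22 was listed only on 2 probe sets shared with another gene and is not described, and no probe set is listed for Hsp23, Hsp67Bc or Hsp83. By the RefSeq gene table for assembly Release 6 plus ISO1 MT, Hsp26 and Hsp27 lie on chromosome arm 3L, Hsp68 on 3R and l(2)efl on 2R.

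The heat shock response is the rapid transcription of chaperone genes after heat, metals or other conditions that unfold proteins, and it is driven by the transcription factor Hsf. Small heat shock proteins, which share an alpha-crystallin domain, hold unfolded proteins in a state from which they can be refolded. Hsp68, like the Hsp70 proteins it resembles, is an ATP-driven chaperone that does such refolding together with Hsp40 co-chaperones. Hsp26 and Hsp27 are also made without stress, in the ovary and in other tissues, and rise with age in adult flies. The l(2)efl gene encodes the fly relative of alpha-crystallin B, known for its abundance in muscle.

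RNA of whole adult males was measured on 150 Affymetrix arrays, for 75 recombinant inbred lines of Drosophila melanogaster called roo lines. Each line had 1 array labelled lead, from food with 250 uM lead acetate, and 1 array labelled control, from food with 250 uM sodium acetate. In both groups 20 males and 20 females laid eggs for 3 days on 10 ml of food at 25 °C, and a pool of 65 sons, 5 to 10 days old, was taken from a vial. RNA came from 50 mg of frozen flies. An array is thus a pool from a single vial, so p-values measure the spread between lines and vials, and in whole flies fewer cells of a type and less RNA per cell cannot be told apart.

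Values are on a log2 scale, which was inferred from their range of 1.93 to 14.04. The array medians lay between 5.29 and 5.55, and an array's median correlation with the remaining arrays was 0.982 in the middle of the set and 0.954 at the lowest. MtnB, a metallothionein gene that metals induce, split the arrays into 76 above 10 (from 11.02 to 13.53) and 74 below 10 (from 4.40 to 8.99). Of the 76 arrays above 10, 40 were labelled lead and 36 were labelled control, and of the 74 below 10, 35 were labelled lead and 39 were labelled control. Each label was thus split almost evenly by MtnB, and the groups are called labelled lead and labelled control throughout. Arrays of a labelled line were also hardly more alike than others, with a consensus correlation of 0.0416. Whether each array's values belong to the flies its label names was not tested, and the differences between diets, the line effect and the differences within lines all rest on those labels. The MtnB classes are set by a measured value and are not the study's groups. As a check of the labelled sex, the mean of 16 yolk and eggshell genes was 3.75 on the median array. It was 9.28 on the array labelled line 213 lead and 7.70 on the array labelled line 38 control, and the next highest array had 6.08. In all, 4 arrays lay above the upper quartile plus 3 interquartile ranges of this mean.

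The first comparison asked whether the heat shock genes differed between the labelled diets. None of the 6 probe sets passed an adjusted p of 0.05, and the arrays labelled lead and labelled control overlapped in each. The genes fell into a variable set, Hsp26, Hsp27 and Hsp68, and l(2)efl, whose values were more even.

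Hsp26, a small heat shock protein of the cytosol, had a lowest, median and highest value of 8.54, 10.31 and 13.27 on the 75 arrays labelled lead, against 8.63, 10.16 and 13.12 on the 75 arrays labelled control. High and low arrays of both labels overlapped over almost the whole range. Its mean was 10.39 ± 1.17 on the arrays labelled lead and 10.34 ± 1.07 on those labelled control (SD, n = 75 each). Hsp27, a small heat shock protein that is found in the nucleus as well, had 8.44, 9.97 and 12.76 on the arrays labelled lead and 8.28, 9.90 and 12.58 on the arrays labelled control. Hsp68 had 6.85, 8.14 and 12.62 on the arrays labelled lead and 6.88, 7.90 and 12.42 on the arrays labelled control. In both groups the Hsp68 median lay close to the low end, and a tail of arrays reached far up.

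The l(2)efl probe sets spread over much less. For l(2)efl A the lowest, median and highest value were 10.50, 11.06 and 11.77 on the arrays labelled lead and 10.50, 11.17 and 11.67 on the arrays labelled control. For l(2)efl B they were 8.86, 9.66 and 10.77 on the arrays labelled lead and 9.06, 9.73 and 10.45 on the arrays labelled control. The remaining probe set, l(2)efl C, was dim, with a mean below which only 18.0% of probe sets lay. It had 2.34, 2.92 and 5.04 on the arrays labelled lead and 2.51, 2.97 and 4.35 on the arrays labelled control. The groups overlapped in all 3.

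**Figure D1:**
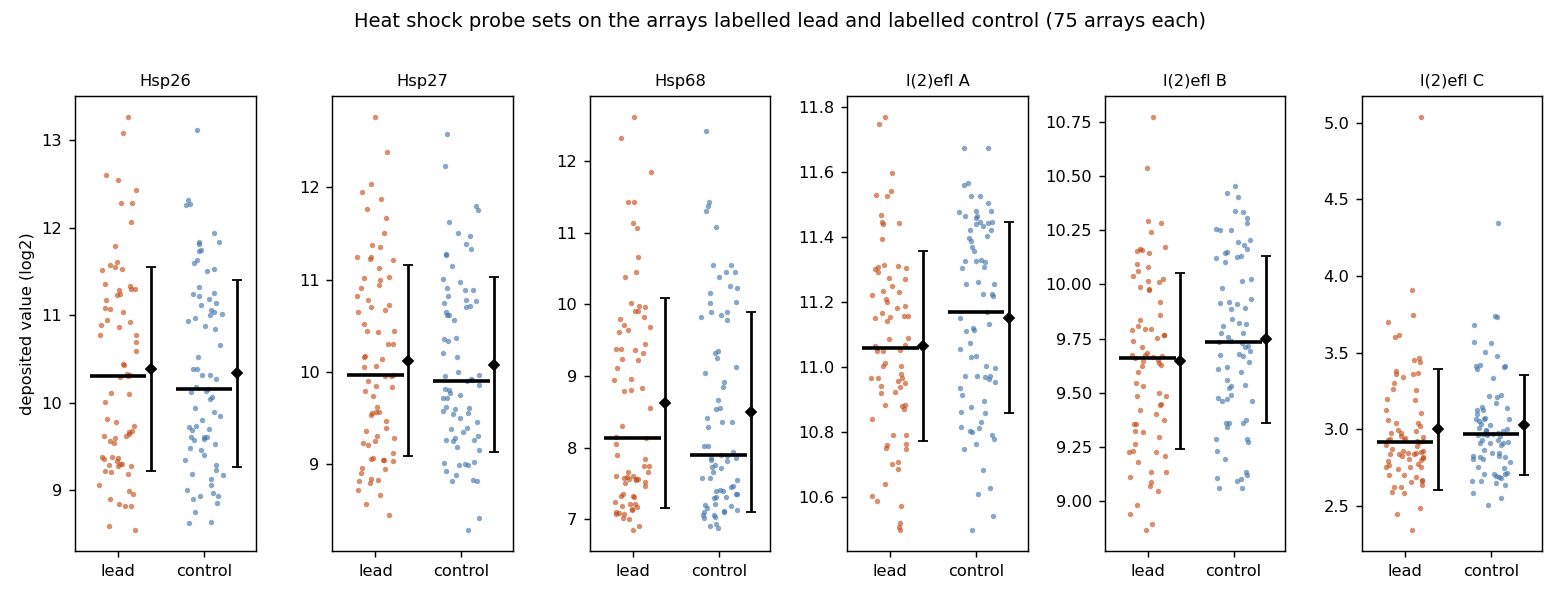
Deposited log2 value (vertical axis, a scale of its own in each panel) of the 6 probe sets on the 75 arrays labelled lead and the 75 labelled control. Points are arrays, horizontal bars medians, and diamonds with bars the mean ± SD; in Hsp68 the arrays labelled lead run from 6.85 to 12.62 and those labelled control from 6.88 to 12.42, and the groups overlap in every panel.

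Within the 75 lines, labelled lead minus labelled control was 0.05 ± 0.16 for Hsp26 (SE, higher on the lead array in 43 lines), 0.04 ± 0.15 for Hsp27 (42 lines) and 0.12 ± 0.21 for Hsp68 (40 lines). The 95% intervals were -0.27 to 0.38 for Hsp26, -0.24 to 0.33 for Hsp27 and -0.30 to 0.55 for Hsp68. For l(2)efl the difference was -0.09 ± 0.05 in l(2)efl A (interval -0.19 to 0.01, higher on the lead array in 29 lines), -0.10 ± 0.07 in l(2)efl B (-0.24 to 0.04, 28 lines) and -0.03 ± 0.06 in l(2)efl C (-0.15 to 0.10, 31 lines). The adjusted p of limma, with line as a block, was 1.00 for each. Of all 18769 probe sets 0 passed, or 0%, and 2.61% had an unadjusted p under 0.05. A signed-rank permutation test over lines gave p from 0.057 for l(2)efl A to 0.625 for Hsp26. None of the other chaperone lists held a gene that passed between the labels.

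The levels were also set against the inbred line. Lead and control arrays of a line, compared over the 75 lines, correlated at r = 0.16 for Hsp26, r = 0.17 for Hsp27 and r = 0.13 for Hsp68. For l(2)efl r was -0.12 in l(2)efl A, -0.16 in l(2)efl B and -0.10 in l(2)efl C. Across all probe sets the middle value was 0.06, and the 5th and 95th percentiles were -0.15 and 0.24, so that l(2)efl B lay just under the 5th percentile and the other 5 inside that span. By limma's F-test of the line terms no member passed, with adjusted p from 0.407 for Hsp27 to 0.952 for l(2)efl B, while 0.0107% of all probe sets passed and 12.3% had an unadjusted p under 0.05.

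The second question was how the genes varied over the 150 arrays. Hsp68, Hsp26 and Hsp27 were among the probe sets that varied most. The SD over the arrays was 1.43 for Hsp68 (rank 83 of 18769), 1.12 for Hsp26 (rank 213) and 0.99 for Hsp27 (rank 306), against a median SD of 0.219. On a linear reading of the log2 scale the highest array exceeded the lowest 54.6-fold in Hsp68, 26.4-fold in Hsp26 and 22.3-fold in Hsp27. The l(2)efl probe sets had SDs of 0.296, 0.399 and 0.362, at ranks 5740, 2693 and 3386, and their highest array exceeded the lowest 2.41-fold, 3.76-fold and 6.48-fold.

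Hsp26, Hsp27 and Hsp68 moved together from array to array. Hsp26 and Hsp27 correlated at r = 0.97 (Spearman's rho = 0.97), Hsp26 and Hsp68 at r = 0.95 (rho = 0.93), and Hsp27 and Hsp68 at r = 0.93 (rho = 0.92). Each had a permutation p of 1e-05, the smallest that 100000 resamples can give, and an adjusted p of 2.5e-05 over the 15 pairs of members. Without the 2 arrays farthest from the median of the first gene the values were 0.97, 0.94 and 0.93. Within arrays labelled lead they were 0.97, 0.94 and 0.91, and within arrays labelled control 0.97, 0.95 and 0.96. They were 0.97, 0.95 and 0.93 on arrays with MtnB above 10, and 0.97, 0.95 and 0.93 with MtnB below 10. Differences of lead and control within the 75 lines, which leave out what a line's arrays share, correlated at r = 0.96, 0.94 and 0.92.

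The l(2)efl gene had a different partner, its own other probe set. Its brighter probe sets, l(2)efl A and l(2)efl B, correlated with each other at r = 0.90 (rho = 0.91, adjusted p = 2.5e-05). With Hsp26, Hsp27 and Hsp68 their r lay between -0.17 and 0.10, and none of these 6 pairs passed an adjusted p of 0.05 by Pearson's r. Hsp27 and l(2)efl B, at r = -0.17 (adjusted p = 0.063), passed by Spearman's rho of -0.18 (0.0367) and without the 2 arrays farthest from the median, at r = -0.19 (0.0321). The dim probe set C correlated with Hsp26 at r = 0.36, with Hsp27 at r = 0.39 and with Hsp68 at r = 0.40, all past the threshold, and with l(2)efl A at r = 0.31. It correlated with l(2)efl B at r = 0.17 (adjusted p = 0.063), and passed by Spearman's rho of 0.28 (0.00102) and without the 2 farthest arrays, at r = 0.18 (0.0439). In all, 8 of the 15 pairs passed by Pearson's r and 10 by Spearman's rho.

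The values of l(2)efl A were also taken within each MtnB class. On the 76 arrays with MtnB above 10 it correlated with Hsp26 at r = 0.36, with Hsp27 at r = 0.29 and with Hsp68 at r = 0.34, with adjusted p of 0.00283, 0.0156 and 0.00369. On the 74 arrays with MtnB below 10 the same values were -0.01, -0.01 and 0.03. The other bright probe set, l(2)efl B, correlated with l(2)efl A at r = 0.85 on the arrays above 10. Its values with Hsp26, Hsp27 and Hsp68 were 0.05, -0.04 and 0.06 there, and -0.12, -0.19 and -0.07 below 10. Whether these coefficients differ between the classes was not tested.

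**Figure D2:**
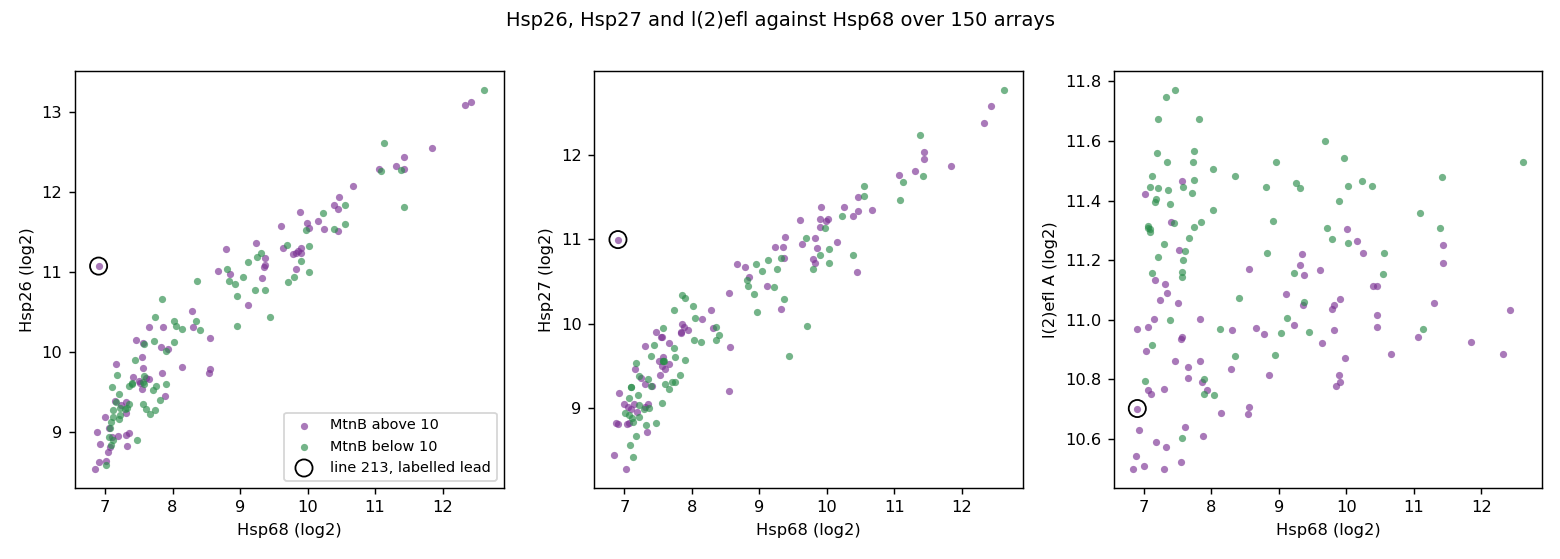
Log2 value of Hsp26, Hsp27 and l(2)efl A (vertical axes) against that of Hsp68 (horizontal axes), with a point for each of 150 arrays coloured by MtnB class. Hsp26 and Hsp27 follow Hsp68 at r = 0.95 and r = 0.93, apart from the circled array labelled line 213 lead, and l(2)efl does not (r = 0.10).

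The arrays at the top were the same ones for Hsp26, Hsp27 and Hsp68. Of the 15 arrays of highest value in each, 12 were shared by all 3 genes. These 12 came from 11 lines, 7 were labelled lead and 5 labelled control, and 7 had MtnB above 10 and 5 below 10. At the low end 6 of 15 arrays were shared, from 6 lines, of which 3 were labelled lead and 3 labelled control. Of the 15 highest arrays of Hsp68, 1 was among the 15 highest of l(2)efl A.

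The array labelled line 84 lead was highest in all 3 genes, at 13.27 for Hsp26, 12.76 for Hsp27 and 12.62 for Hsp68. Next came the array labelled line 97 control at 13.12, 12.58 and 12.42, and then the array labelled line 75 lead at 13.08, 12.38 and 12.33. These 3 arrays stood above a gap in Hsp68, since the fourth highest had 11.84 against 12.33 for the lowest of the 3. The other array of the same line was not always high. The array labelled line 84 control had 8.97 for Hsp26, 9.29 for Hsp27 and 7.31 for Hsp68, which ranked 119 of 150 in Hsp68. The array labelled line 97 lead had 11.17, 11.03 and 9.37, and the array labelled line 75 control had 12.27, 12.23 and 11.38, where it ranked 8 in Hsp68. Line 75 was therefore high on both arrays and line 84 on 1 of them. By the rule of the upper quartile plus 3 interquartile ranges, no array was far above the rest in Hsp26, Hsp27 or Hsp68, whose wide spread puts that bound at 16.76 for Hsp68.

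The same rule found 2 arrays in l(2)efl, both in the dim probe set C, whose median was 2.93. The array labelled line 45 lead had 5.04 and the array labelled line 97 control had 4.35. On these arrays the brighter probe sets of l(2)efl lay under their medians over all arrays. For l(2)efl A the values were 11.07 in line 45 and 11.03 in line 97, against a median of 11.11. For l(2)efl B they were 9.36 and 9.59, against 9.68. Both arrays had MtnB above 10, where the medians were 10.96 for A and 9.47 for B. Of these values only that of B in line 45 lay under the median of its class. Hsp68 was high on the array of line 97, as given above, and had 9.90 on that of line 45 (rank 30). Other named genes were ranked on these arrays by their distance above their own median, in units of their interquartile range over all arrays. The array labelled line 45 lead had GluClalpha, a glutamate-gated chloride channel, first, at 6.40 against a median of 3.16. Next were CG1304, a predicted serine protease, at 6.32 against 2.82, and the cytochrome P450 genes Cyp6a17 at 7.36 against 2.89 and Cyp12d1-d at 8.47 against 3.26. Cpr35B, CG17944, Tsp39D, IFT52 and B-H2 followed. On the array labelled line 97 control RFeSP, the Rieske iron-sulfur subunit of the respiratory chain, was first, at 7.89 against a median of 2.89. The nuclear receptor gene Hr38 was next, at 5.02 against 2.47. The medians of both probe sets lay under that of the dim l(2)efl C, and their height above background is unknown. The others on that array were CG17944, CG13795, Tsp39D, clos, Cyp310a1, CG18682 and Prosbeta5R1. CG17944 and Tsp39D appeared on both arrays.

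A single array left the common course of the 3 variable genes. The array labelled line 213 lead had 11.07 for Hsp26 and 11.00 for Hsp27, above both medians, but 6.91 for Hsp68, the third lowest value of 150. Its distance from the straight line of Hsp26 on Hsp68 was 1.94, where the next largest was 0.83, and from the line of Hsp27 on Hsp68 it was 1.97, where the next largest was -1.05. Of the genes most like Hsp68, stv was low there, at 8.83 against a median of 9.55 (rank 140), and DnaJ-1 was at 10.37 against 10.70 (rank 102). This is the array with the highest mean of yolk and eggshell genes, 9.28, and the part of that in its Hsp26 and Hsp27 values was not tested. On the array labelled line 38 control, at 7.70 in that list, Hsp26 was 9.72, Hsp27 was 9.54 and Hsp68 was 7.18. Without the array of line 213, chosen after its values were seen, r was 0.96 between Hsp26 and Hsp68 and 0.95 between Hsp27 and Hsp68.

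The probe sets that rose and fell with Hsp26, Hsp27 and Hsp68 were few. Over the 150 arrays, Spearman's rho exceeded 0.5 with Hsp26 in 20 of 18768 other probe sets, or 0.107%, with Hsp27 in 18, or 0.0959%, and with Hsp68 in 19, or 0.101%. It was under -0.5 in 1 with Hsp26 (0.00533%), in 8 with Hsp27 (0.0426%) and in 1 with Hsp68 (0.00533%). It exceeded 0.8 in 11, 10 and 12 of them. The named genes most like each were the same 3. DnaJ-1, an Hsp40 co-chaperone that feeds unfolded proteins to Hsp70, had rho of 0.92 with Hsp26, 0.90 with Hsp27 and 0.90 with Hsp68. The non-coding RNA lncRNA:alphagamma-element:CR32865 had 0.92, 0.91 and 0.91. The third gene was stv, a BAG-domain co-chaperone of Hsp70, at 0.81, 0.83 and 0.85.

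DnaJ-1 ran from 9.58 through a median of 10.70 to 12.69, an 8.63-fold range, and stv from 7.91 through 9.55 to 12.01, a 17.2-fold range. The non-coding RNA ran from 4.73 through 8.76 to 12.54, a 224-fold range, on a probe set whose suffix, _x_at, marks probes that may also match other transcripts. A further 4 probe sets list several Hsp70 copies, near-identical genes whose signals cannot be separated. Their rho with Hsp68 was 0.96, 0.96, 0.95 and 0.80, with Hsp26 0.94, 0.94, 0.94 and 0.76, and with Hsp27 0.93, 0.93, 0.92 and 0.77. The highest array exceeded the lowest 562-fold, 748-fold and 694-fold in 3 of them, and 6.25-fold in the dimmest, whose median was 2.56.

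**Figure D3:**
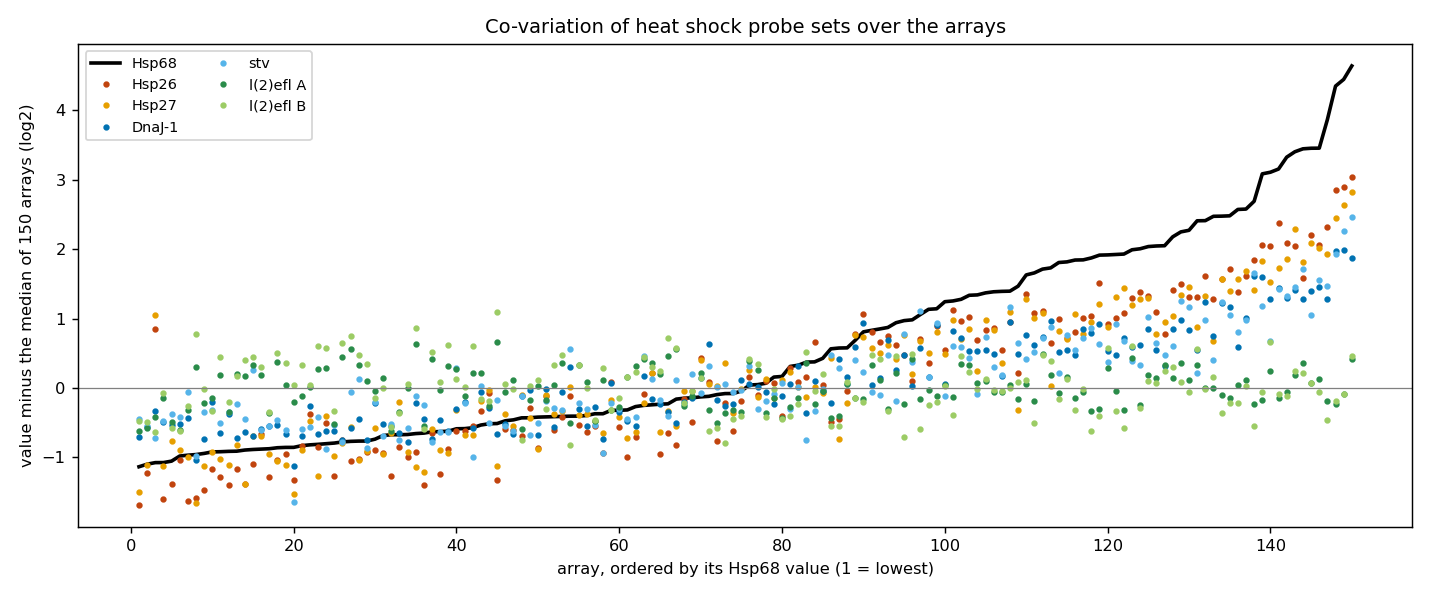
Values of Hsp68, Hsp26, Hsp27, DnaJ-1, stv and the brighter l(2)efl probe sets minus their median over 150 arrays (vertical axis, log2), with the arrays ordered by Hsp68 (horizontal axis). Hsp68 reaches 4.64 above its median and Hsp26 3.04, DnaJ-1 and stv rise along the same order, and the l(2)efl points stay around 0.

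Other chaperones and regulators followed these genes much less. Of 14 measured co-chaperone genes of a list of 20, DnaJ-1 and stv were the 2 with rho over 0.5 with Hsp26, Hsp27 or Hsp68, and the list's median rho with Hsp68 was 0.13. In the Hsp70 and Hsp110 family 0 of 6 genes with a probe set of their own exceeded 0.5. The highest was Hsc70-3, the chaperone of the endoplasmic reticulum, at 0.41 with Hsp26, 0.46 with Hsp27 and 0.41 with Hsp68. None of 13 chaperonin genes, 2 Hsp90-family genes, 3 other alpha-crystallin genes or 6 regulators did. The level of Hsf itself had rho of 0.23 with Hsp26, 0.22 with Hsp27 and 0.17 with Hsp68. The 3 other alpha-crystallin genes had negative values, from -0.29 to -0.19 for Hsp26 and from -0.34 to -0.25 for Hsp27. These are rank correlations over arrays that also vary in tissue markers and RNA quality, as given below, and they are given as a description.

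**Figure D4:**
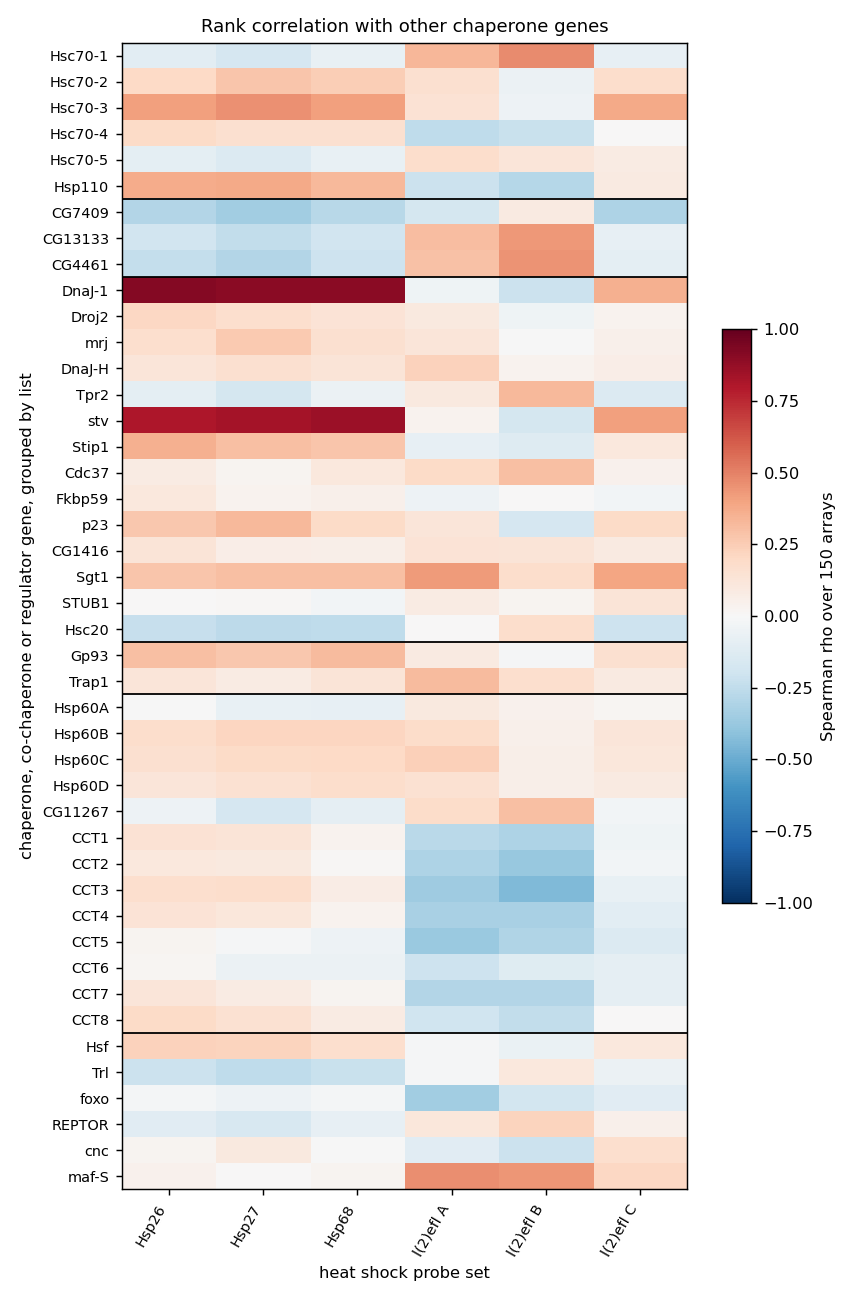
Spearman's rho over 150 arrays (colour) between the 6 heat shock probe sets (columns) and 44 chaperone, co-chaperone and regulator genes (rows, with lines between the lists). DnaJ-1 and stv are at 0.81 or more with Hsp26, Hsp27 and Hsp68, and no gene shown exceeds 0.5 in size with l(2)efl.

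For l(2)efl the likeness was broader and weaker. With l(2)efl A, 241 probe sets had rho over 0.5, or 1.28%, and 189 were under -0.5, or 1.01%. The named genes most like it were CG11191 at 0.74, fau at 0.71 and PIP5K59B, a phosphatidylinositol phosphate kinase, at 0.71. All were lower on the arrays with MtnB above 10, as l(2)efl A was, by -0.39 ± 0.047 (SE), -0.59 ± 0.048 and -0.39 ± 0.050. They were picked by their rho with l(2)efl A over both classes, so this likeness is partly built in. Of all probe sets 17.0% were called lower in that comparison. Within the arrays with MtnB above 10 the same rho were 0.55, 0.46 and 0.56, and within those below 10 they were 0.61, 0.43 and 0.53, so the pooled values partly hold that class difference. With probe set B 171 had rho over 0.5 (0.911%) and 74 under -0.5 (0.394%). The named genes most like it were EMRE, a subunit of the mitochondrial calcium uniporter, at 0.76, CG13409 at 0.70 and Ras64B at 0.69. These pooled values partly hold the class difference of B as well. Within the arrays above 10 they were 0.57, 0.63 and 0.40, and within those below 10 they were 0.52, 0.47 and 0.45. With the dim probe set C 1 had rho over 0.5 (0.00533%), Phm, an enzyme of neuropeptide maturation, at 0.52, followed by Cyp9c1 at 0.48 and Not11 at 0.45. No gene of the 6 chaperone lists exceeded 0.5 in size with any l(2)efl probe set.

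The third comparison set the 76 arrays with MtnB above 10 against the 74 arrays with MtnB below 10. The brighter l(2)efl probe sets were lower on the arrays with MtnB above 10, and Hsp26, Hsp27 and Hsp68 did not pass the test. The lowest, median and highest value of l(2)efl A were 10.50, 10.96 and 11.47 on the arrays above 10 and 10.60, 11.32 and 11.77 on the arrays below 10. Those of l(2)efl B were 8.94, 9.47 and 10.45 above 10 and 8.86, 9.98 and 10.77 below 10. The classes overlapped, but 73 of the 76 arrays above 10 lay under the median of the arrays below 10 in l(2)efl A, and 71 of 76 did in l(2)efl B.

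The difference was -0.35 ± 0.039 (SE) in l(2)efl A, in limma with labelled diet as a covariate (95% interval -0.42 to -0.27, adjusted p = 2.03e-13). It was -0.43 ± 0.054 in l(2)efl B, with 95% bounds of -0.54 and -0.32 (adjusted p = 5.06e-11). On the linear scale these are 1.27-fold and 1.35-fold, taken as arrays below 10 over arrays above 10. In the dim l(2)efl C the difference was -0.03 ± 0.059 (adjusted p = 0.761). The difference of A and B was thus not seen in C, whose height above background is unknown. The call on 2 of 6 members stands against a background of 28.7% of 18768 probe sets called, 11.7% higher and 17.0% lower where MtnB was above 10. Passing the test is therefore common here. Of all 18768 probe sets, 1.57% passed and were lower by more than 0.3. That bound lies under the size of both l(2)efl differences, so both exceed it by its choice, and the share is given as a description. By p the l(2)efl probe sets ranked 106 and 194.

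Hsp26 was 0.21 ± 0.18 higher on the arrays with MtnB above 10 (interval -0.15 to 0.57, adjusted p = 0.420), Hsp27 0.26 ± 0.16 (-0.05 to 0.58, adjusted p = 0.225) and Hsp68 0.24 ± 0.23 (-0.22 to 0.70, adjusted p = 0.480). Their ranges were nearly the same in both classes. Hsp26 had a lowest, median and highest value of 8.54, 10.31 and 13.12 on the arrays above 10 and 8.60, 10.13 and 13.27 on those below 10. For Hsp27 these were 8.28, 10.03 and 12.58 above 10 and 8.42, 9.80 and 12.76 below 10. For Hsp68 they were 6.85, 8.30 and 12.42 above 10 and 7.01, 7.88 and 12.62 below 10. With the 3' to 5' difference of Act5C as a covariate, Hsp27 was higher by 0.42 ± 0.15 and passed at an adjusted p of 0.0307. The genes most like Hsp26, Hsp27 and Hsp68 did not pass: the class difference was 0.25 ± 0.11 for DnaJ-1 (adjusted p = 0.0868), 0.10 ± 0.12 for stv (0.573) and 0.81 ± 0.36 for the alphagamma RNA (0.0815).

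**Figure D5:**
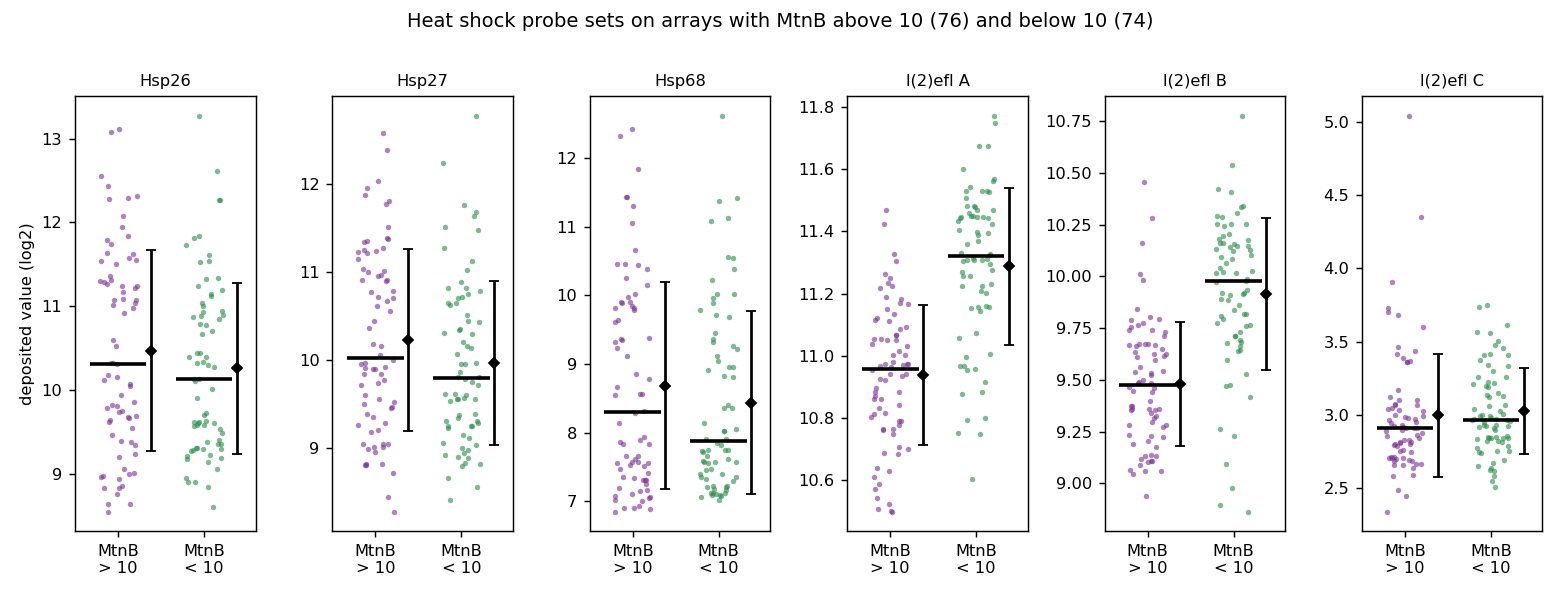
Deposited log2 value (vertical axis, a scale of its own in each panel) of the 6 probe sets on the 76 arrays with MtnB above 10 and the 74 arrays with MtnB below 10. Points are arrays, horizontal bars medians, and diamonds with bars the mean ± SD; the l(2)efl medians are 10.96 against 11.32 in l(2)efl A and 9.47 against 9.98 in l(2)efl B, while the other 4 panels overlap closely.

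In 30 lines the arrays fell on different sides of 10, which allows the comparison within a line. The brighter l(2)efl probe sets were each lower on the array with MtnB above 10 in 28 of the 30 lines. The mean difference was -0.43 ± 0.058 (SE) in l(2)efl A and -0.59 ± 0.087 in l(2)efl B, with a sign permutation p of 1e-05, the smallest that 100000 resamples can give, and of 2e-05. Hsp26 was higher on the array with MtnB above 10 in 19 of the 30 lines (0.25 ± 0.29, p = 0.392), Hsp27 in 20 (0.35 ± 0.25, p = 0.184) and Hsp68 in 19 (0.29 ± 0.39, p = 0.457). The class difference did not differ detectably between the labels: the interaction with labelled diet was 0.07 ± 0.077 in l(2)efl A and -0.03 ± 0.11 in l(2)efl B, with adjusted p of 0.752 and 0.929 in limma. It passed in 0% of all probe sets, with 8.76% at an unadjusted p under 0.05. Within a class the MtnB value and the members were not related past the threshold, in 12 relations whose smallest adjusted p was 0.297.

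Muscle, midgut and accessory gland markers moved with the MtnB classes beside l(2)efl, where 28.7% of all probe sets were called. Of 18 measured muscle genes 0 were higher and 16 were lower where MtnB was above 10, with a median of -0.30, against -0.02 over all probe sets. The mean level of the muscle list ran from 9.09 to 11.35 on the arrays above 10 and from 9.38 to 11.55 on those below 10. Of 22 midgut digestive genes 18 were higher and 1 lower, with a median of 0.72, and the list mean ran from 8.36 to 10.51 above 10 and from 6.75 to 10.18 below 10. Of 21 accessory gland genes 13 were lower (median -0.16), and of 24 testis genes 1 was higher and 2 were lower. Of 5 Turandot stress genes 1 was higher, of 6 antimicrobial peptide genes 1 was lower, and none of 16 yolk and eggshell genes passed. RNA quality was read from the 3' to 5' difference of Act5C, which was 2.60 ± 0.503 on the arrays above 10 and 2.87 ± 0.631 on those below 10 (SD, n = 76 and 74).

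Over all arrays the brighter l(2)efl probe sets A and B ran against the midgut list and with the muscle list. With the midgut list r was -0.46 for l(2)efl A and -0.27 for l(2)efl B, and with the muscle list it was 0.26 and 0.38, all past an adjusted p of 0.05 over 54 relations. Within the arrays above 10 the midgut values were -0.27 and -0.05 and the muscle values 0.22 and 0.45, and within those below 10 they were -0.26 and -0.01 and 0.00 and 0.13. For the dim l(2)efl C r was -0.10 with midgut and -0.18 with muscle, and neither passed (adjusted p = 0.315 and 0.0687). With the accessory gland list r was 0.40 for l(2)efl A, which passed, and 0.16 for B, which did not (adjusted p = 0.0933). With the Turandot list it was -0.30 for A and -0.20 for B, both past the threshold. With the Act5C difference it was 0.23 for A and 0.24 for C, which passed as well. For B it was -0.12 (adjusted p = 0.264), opposite in sign to A. Within the arrays below 10 it was -0.40 for B and 0.02 for A. With an array's median correlation with the others r was -0.17 for A and -0.19 for B, and neither passed (adjusted permutation p = 0.082 and 0.065). By Spearman's rho both did, at -0.29 and -0.30 (adjusted permutation p = 0.0025 for each). Within the arrays above 10 these r were -0.01 and -0.08, and within those below 10 they were 0.11 and 0.09. With the means of the muscle and midgut lists as covariates, the class difference was -0.27 ± 0.043 (adjusted p = 4.16e-07 in limma) and -0.37 ± 0.061 (8.43e-07). With the Act5C difference as a covariate it was -0.33 ± 0.039 and -0.48 ± 0.053. Hsp27 had r = 0.30 with the Act5C difference and r = 0.31 with the testis list, and Hsp26 had 0.21 and 0.22 (adjusted p between 0.00216 and 0.0354). With the muscle list r was -0.22 for Hsp26 (adjusted p = 0.027) and -0.26 for Hsp27 (0.00834), opposite in sign to l(2)efl A and B. With the accessory gland list it was 0.22 for Hsp27 (0.027), and no relation of Hsp68 passed by Pearson's r. By Spearman's rho Hsp68 passed with the testis list (0.27, adjusted p = 0.00578) and the Act5C difference (0.24, 0.0111). With the Act5C difference as a covariate the class difference was 0.34 ± 0.18 for Hsp26 (adjusted p = 0.176 in limma), beside the value for Hsp27 given above. With the muscle and midgut covariates it was 0.19 ± 0.21 for Hsp26 (0.643) and 0.28 ± 0.18 for Hsp27 (0.335). The part of the testis and accessory gland lists was not tested.

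The other chaperone lists were counted in the same comparison, in which 28.7% of all probe sets were called, 11.7% higher and 17.0% lower. Of 13 chaperonin genes, which encode the barrel-shaped folding machines of cytosol and mitochondria, 8 were higher and 0 lower where MtnB was above 10, with a median of 0.21. Subunits of the cytosolic complex led them, with CCT5 at 0.33 ± 0.048 (SE), CCT3 at 0.28 ± 0.045, CCT7 at 0.25 ± 0.041 and CCT1 at 0.25 ± 0.048. In the Hsp70 and Hsp110 family the constitutive Hsc70-4 was higher by 0.12 ± 0.027, Hsp110, its nucleotide exchange factor, was higher by 0.11 ± 0.031, and Hsc70-1 was lower at -0.24 ± 0.076, out of 6 genes whose median was -0.05. Among the 3 other alpha-crystallin genes CG7409 was higher at 0.24 ± 0.093, and CG4461 at -0.28 ± 0.097 and CG13133 at -0.10 ± 0.040 were lower, so that the family that l(2)efl belongs to had members in both directions.

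Of 14 co-chaperone genes the Hsp70-Hsp90 adaptor Stip1 was higher at 0.14 ± 0.036 and Sgt1 was lower at -0.09 ± 0.026, with a list median of -0.01. Of the Hsp90 family the mitochondrial Trap1 was lower at -0.08 ± 0.025. Among 6 regulators foxo was higher at 0.15 ± 0.035, and maf-S at -0.10 ± 0.031 and REPTOR at -0.12 ± 0.043 were lower, while Hsf did not pass. The other metallothioneins MtnA, MtnC and MtnD, counted as a check of the classes, were higher in 3 of 3, with a median of 2.53.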

How the data were processed

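The authors deposited a table of processed values per probe set on a log2 scale, as inferred from the values. How probes were summarised and normalized, and with which software, is information not given in the sources used here. The deposited values were used without further normalization. Of 18952 probe sets, 183 controls of the array were dropped, and the other 18769 entered every fit whatever their signal. Exactly 1 symbol was given for 13646 of them, and a gene of a list with several probe sets is given by the one with the highest mean.

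Differences were fitted with limma 3.58.1 in R 4.3.3 over all probe sets with Benjamini-Hochberg adjustment at 0.05. The labelled diets were compared within the 75 lines, since the labels name the same inbred line on both. As a check, arrays of a line had a consensus correlation of 0.0416. The MtnB classes were fitted with labelled diet as a covariate and without MtnB itself, which chose them. Correlations used 100000 permutations (Python 3.11.15, numpy). On simulated data, known differences of 0.25, 0.5 and 1 were recovered in 84%, 97.5% and 99% of the changed probe sets between labelled diets. Between MtnB classes the shares were 84%, 98.5% and 99.5%. The 200 changed probe sets were drawn at random from all and simulated as independent values. The median SE over all probe sets was 0.034 between diets and 0.035 between classes. For Hsp26, Hsp27 and Hsp68 the SE was 0.15 to 0.21 and 0.16 to 0.23, so these shares do not apply to them. The number of arrays limits the precision.

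Named were all members, the 3 named genes with the highest rho for each, up to 4 genes past the threshold per chaperone list, and up to 10 probe sets on arrays far above the rest. The array of line 213 fell outside this rule and was chosen after its values were seen. The members, the gene lists and the tests were chosen with earlier results of these data known. Alternatives were quantile normalization, median centring, a filter on dim probe sets, array weights, other thresholds, no block, line as a block, each label or line series alone, covariates, and arrays left out.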

Additional observations from a re-analysis of the deposited data

How the results depend on the processing

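The number of members past the threshold was the same in all alternatives between the labelled diets (0 of 6, including 0 with no replicate block and 0 by the signed-rank test) and for the line effect (0 of 6). Between MtnB classes it was 2 of 6, including with line as a replicate block. The exception was 3 of 6 with the Act5C difference as a covariate, where Hsp27 was added. The filter on dim probe sets dropped l(2)efl C, so the counts there were 0 of 5 between the labelled diets and 2 of 5 between MtnB classes. Over all alternatives the class difference was between -0.42 and -0.27 in l(2)efl A and between -0.58 and -0.37 in l(2)efl B, the larger in size with line as a fixed replicate block (-0.42 and -0.58), while line as a random replicate block gave -0.35 and -0.44. The count over all probe sets between MtnB classes moved from 5383 to 3583 at a threshold of 0.01, 1644 with line as a fixed replicate block, 2325 in arrays labelled lead only and 2553 with the muscle and midgut covariates. The line effect over all probe sets moved from 2 to 0 with median centred arrays and to 0 without the lines of the 8 arrays of lowest correlation. Arrays far above the rest numbered 2 by the interquartile rule and 57 by the median plus 1. Values that never passed the threshold with all arrays changed sign in 7 cases. These were l(2)efl C between classes with line as a fixed replicate block (0.0265) and with the Act5C covariate (0.0121), Hsp26 between labels in lines above 200 (-0.0261), and 4 correlations within a class. With MtnB above 10 r was 0.0522 between Hsp26 and l(2)efl B and 0.0633 between Hsp68 and l(2)efl B, and with MtnB below 10 it was -0.0106 between Hsp26 and l(2)efl A and -0.00904 between Hsp27 and l(2)efl A. The cause was not tested. Of 15 pairs of members, 7 to 11 correlated past the threshold, and Hsp26, Hsp27 and Hsp68 did in every alternative. The alternatives without the arrays of lowest correlation, without the array of line 213 and with differences within lines were chosen after seeing the data. The values hold no detection calls, so how far the dim l(2)efl C lies above background is unknown. All alternatives use the same labels.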
